A study of Mus musculus with 18 samples.

Results

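tRNA-Tyr-GTA is the nuclear tyrosine tRNA, read here in the mouse hippocampus as precursor and as mature molecules. All rows of the read table that begin with its name were taken, in sense orientation, which gave 47 of 3574 rows. Of these, 27 rows covered 9 of the 335 precursor loci in the table, and 20 rows covered 5 of its 213 mature tRNAs. The first number in a name is the isodecoder, a group of genes with the same mature sequence, and the last number in a locus name is the gene copy. Only 24 of the 47 rows held a read in any mouse. Every precursor read was in the partial class, and the rows for whole precursors, for trailers and for whole mature tRNAs held 0 reads in all 18 mice. The 5 antisense rows of the family were left out. RefSeq (GRCm38.p6) names 10 mouse genes of this tRNA, of which 6 form a group with less than 50 kb between neighbours, 2 form a second group, and 2 stand alone.

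A precursor tRNA carries extra sequence at both ends, and some precursors also carry an intron in the anticodon loop. The ends are trimmed by ribonucleases, the intron is cut out by the tRNA splicing endonuclease, and the exons are joined by the tRNA ligase complex. Tyrosine tRNA depends on this route because its genes have introns, so its precursor and its mature form are commonly read side by side when tRNA splicing is studied. RTP801, the stress-responsive protein encoded by Ddit4, is the gene product that the study silenced to ask whether precursor and mature tRNA levels follow it.

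The 18 male mice fell into 4 groups by genotype and by the short hairpin RNA they received. WT mice were of B6SJL background, and 5xFAD mice are an Alzheimer's disease model with transgenes driven by the neuronal Thy1 promoter. All mice were 6 months old when a neuron-targeted rAAV2/8 was delivered to CA1 and the dentate gyrus of both sides, and both hippocampi were taken 4 weeks later. The groups were WT shCT (n = 5) and 5xFAD shCT (n = 3), which carried a control hairpin, and WT shRTP801 (n = 4) and 5xFAD shRTP801 (n = 6), which carried a hairpin against RTP801. Every mouse thus had a virus that also expressed GFP, and no uninjected mouse was read. Ddit4 mRNA has no row in a tRNA table, so the knockdown was not checked here. The tissue was bulk hippocampus, in which fewer cells of a type and less RNA per cell cannot be told apart.

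The libraries held 17961451 to 33930028 reads, of which 47875 to 318628 were precursor reads. In 3 libraries, WT shCT mouse 5, WT shRTP801 mouse 4 and 5xFAD shRTP801 mouse 7, the composition stood apart. Mitochondrial tRNA made up 0.00315 to 0.436% of reads there and 8.67 to 40.4% in the other 15, and small nucleolar RNA (snoRNA) 0.000358 to 0.0350% against 0.573 to 6.55%. Mature tRNA made up 98.0 to 98.7% of reads in these 3 libraries and 33.5 to 86.3% in the others. The brain markers did not run one way. Snord116, a neuronal snoRNA family, had 0 reads in these 3 libraries and 141 to 10126 in the others. The brain microRNA Mir124 had 0 to 1 reads in the 3 and 1 to 81 in the others. Mir9, also a brain microRNA, had 0 reads in the 3 and 0 to 12 in the others, and Snord115 has no row. By contrast, the mature brain tRNA tRNA-Arg-TCT-4 had 1175 to 6619 reads in the 3 and 61 to 1695 in the others. The liver microRNA Mir122 had 0 to 1 reads in the 3 and 4 to 48 in the others. The muscle and red blood cell microRNAs looked for (Mir1, Mir133, Mir451 and Mir144) have no row in the table, so RNA of those tissues could not be checked. No 5xFAD shCT library was among the 3, and the precursor differences are also given without them. Next lowest in snoRNA were 5xFAD shRTP801 mouse 12 (0.573%) and WT shCT mouse 11 (0.726%), which stay in when the 3 are left out. Their Tyr-GTA precursor levels, given below, were the lowest of their groups. Leaving out the 3 libraries thus keeps a difference in composition between 5xFAD shCT and both groups it is compared with.

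Precursor levels are given as the percentage of all precursor reads of a mouse. By mean level the Tyr-GTA family was 26th of 48 precursor families, at 0.385%. Per mouse it was 0.194, 0.129, 0.248, 0.113 and 0.764% in WT shCT (mice 3, 5, 6, 11 and 15). It was 0.119, 0.384, 0.259 and 0.352% in WT shRTP801 (mice 4, 10, 17 and 21). In 5xFAD shCT it was 0.923, 1.21 and 0.671% (mice 1, 16 and 18). The 3 5xFAD shCT mice were above every other mouse except WT shCT mouse 15, which lay within their range. The 6 5xFAD shRTP801 mice ran from 0.0822% to 0.399%, with a median of 0.311%, so they lay below all 3 5xFAD shCT mice. These levels rest on 90 to 616 reads a mouse. For the 560 reads of 5xFAD shCT mouse 1 the 95% Wilson interval was 0.850 to 1.003%, and for the 366 reads of WT shCT mouse 15 it was 0.690 to 0.847%. Such intervals cover counting error only, because reads copied by PCR are not independent molecules.

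The group means of WT shCT and WT shRTP801 were 0.290% ± 0.271 (SD, n = 5) and 0.278% ± 0.119 (n = 4), and those of 5xFAD shCT and 5xFAD shRTP801 were 0.935% ± 0.271 (n = 3) and 0.260% ± 0.136 (n = 6). Log2 differences below are on the scale log2(percentage + 0.001%), and adjusted p values are from limma with Benjamini-Hochberg adjustment over all families or loci tested, at a threshold of 0.05. 5xFAD shCT was 4.08-fold above WT shCT (log2 difference 2.03, SE 0.64), which did not pass at an adjusted p of 0.284 (unadjusted 0.00592, two-sided exact permutation p = 0.0357). 5xFAD shRTP801 was 4.12-fold below 5xFAD shCT (log2 difference -2.04, SE 0.62), again short of the threshold at an adjusted p of 0.218 (unadjusted 0.00454), with an exact permutation p of 0.0119 that is the smallest 6 against 3 mice can give. No precursor family passed in either comparison with limma (0%), edgeR or DESeq2. At an unadjusted p below 0.05, limma gave 5 families that were higher in 5xFAD shCT than in WT shCT, or 10.4% of 48. In the other comparison it gave 2 families that were lower in 5xFAD shRTP801 than in 5xFAD shCT, or 4.17%. Tyr-GTA was among them in each case and had the smallest p value of the 48 families. In the comparison of the 5xFAD groups, 3 families (6.25%) had no overlap with the shRTP801 mice lower, Tyr-GTA included. The comparisons share the 5xFAD shCT mice.

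**Figure D1:**
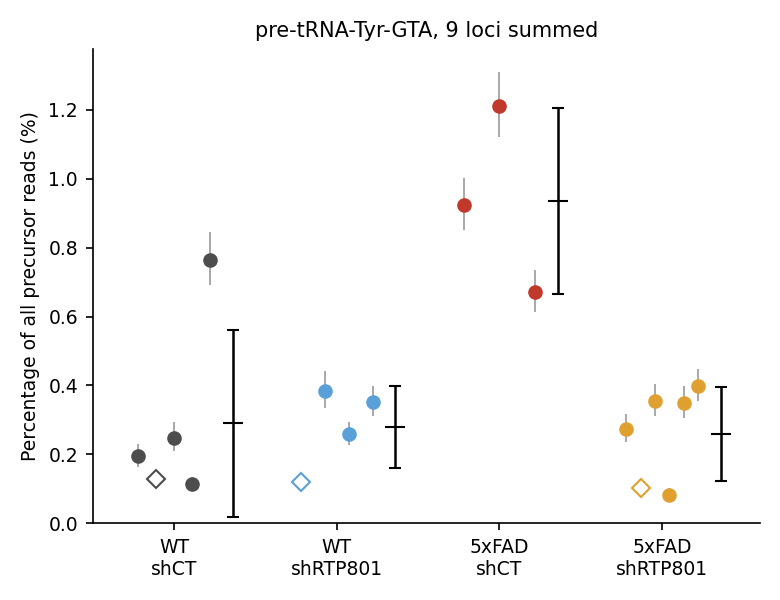
Percentage of precursor reads from the Tyr-GTA family in each of 18 mice, with a 95% Wilson interval on each point and the mean ± SD beside each group. Open diamonds mark the 3 libraries with under 0.5% mitochondrial tRNA. The 5xFAD shCT mice sit between 0.671 and 1.21%, and the only other mouse in that range is WT shCT mouse 15 at 0.764%.

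In WT mice the hairpin made no difference larger than the spread. WT shRTP801 differed from WT shCT by 0.19 on the log2 scale (SE 0.59, limma adjusted p = 0.878), and 5xFAD shRTP801 differed from WT shRTP801 by -0.20 (SE 0.57, limma adjusted p = 0.966). The interaction, that is the hairpin's difference in 5xFAD minus that in WT, was -2.23 (SE 0.86) and did not pass either (limma unadjusted p = 0.0189, adjusted p = 0.227). With each mouse left out in turn, the genotype comparison passed in 1 of 18 runs, the one that left out WT shCT mouse 15. That mouse had the highest snoRNA share of its group (4.83%), nearest to 5xFAD shCT. Leaving it out therefore widens the difference in library composition between the groups. Without mouse 15 the difference between 5xFAD shCT and WT shCT was 2.47 (SE 0.58) at a limma adjusted p of 0.0175. Of the 48 families 2 then passed (4.17%), Tyr-GTA and Ser-GCT, the latter named after its value was seen. Without the 3 libraries low in mitochondrial tRNA, the 2 differences that involve 5xFAD shCT were 1.83 (limma adjusted p = 0.252, exact permutation p = 0.0857) and -1.82 (limma adjusted p = 0.383, exact permutation p = 0.0179), and the interaction was -2.18 (limma adjusted p = 0.0919).

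Locus 2-1, the only copy of isodecoder 2 with reads, gave the most precursor reads of the family, 2358 of 4927. It was at 0.0881, 0.0390, 0.1003, 0.0329 and 0.322% in WT shCT, and at 0.0273, 0.222, 0.136 and 0.195% in WT shRTP801. It was at 0.503, 0.716 and 0.466% in 5xFAD shCT. In 5xFAD shRTP801 it ran from 0.0247 to 0.234% with a median of 0.126%. All 3 5xFAD shCT mice were above all 15 other mice. 5xFAD shCT was 6.66-fold above WT shCT (log2 difference 2.73, SE 0.86, limma unadjusted p = 0.00495, adjusted p = 0.313), with an exact permutation p of 0.0179, the smallest that 3 against 5 mice can give. 5xFAD shRTP801 was 6.36-fold below 5xFAD shCT (log2 difference -2.67, SE 0.83, limma unadjusted p = 0.00469, adjusted p = 0.422, exact permutation p = 0.0119). Without the 3 libraries low in mitochondrial tRNA these differences were 2.47 (limma adjusted p = 0.212, exact permutation p = 0.0571) and -2.32 (limma adjusted p = 0.295, exact permutation p = 0.0179). With the share of snoRNA in the library as a covariate they were 1.86 and -2.01, smaller by over 1.5 times as a fold (limma adjusted p = 0.442 and 0.414).

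Locus 3-1, the weaker copy of isodecoder 3, ran the same way at a lower level, a mean over all mice of 0.0146% against 0.197% for 2-1, and rests on 180 reads. Its share was 0.00597, 0.00263, 0.00365, 0.00230 and 0.0230% in WT shCT, and 0.00167, 0.0138, 0.0114 and 0.0242% in WT shRTP801. In 5xFAD shCT it was 0.0313, 0.0335 and 0.0508%, and in 5xFAD shRTP801 it ran from 0.00183 to 0.0217% with a median of 0.00955%. Here too the 5xFAD shCT mice were above all others. The log2 difference between 5xFAD shCT and WT shCT was 2.64 (SE 0.79, limma unadjusted p = 0.00355, adjusted p = 0.305, exact permutation p = 0.0179). Between 5xFAD shRTP801 and 5xFAD shCT it was -2.21 (SE 0.76, limma unadjusted p = 0.00951, adjusted p = 0.452, exact permutation p = 0.0119). The differences were 2.44 (exact permutation p = 0.0571) and -1.96 (exact permutation p = 0.0179) without the 3 libraries, and with the snoRNA covariate 1.91 and -1.67.

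Locus 3-2, the stronger copy of isodecoder 3, gave 1703 reads and did not separate the groups. Its share was 0.0627, 0.0201, 0.144, 0.0199 and 0.403% in WT shCT, 0.0234, 0.132, 0.0950 and 0.120% in WT shRTP801, and 0.368, 0.439 and 0.139% in 5xFAD shCT. In 5xFAD shRTP801 it ran from 0.0176 to 0.210% with a median of 0.128%. 5xFAD shCT mouse 18 lay among the mice of the other groups, and WT shCT mouse 15 among the 5xFAD shCT mice. The log2 difference was 2.02 (SE 0.96, limma adjusted p = 0.313, exact permutation p = 0.214) between 5xFAD shCT and WT shCT, and -1.78 (SE 0.93, limma adjusted p = 0.611, exact permutation p = 0.0476) between 5xFAD shRTP801 and 5xFAD shCT. These were 1.59 and -1.35 without the 3 libraries, and with the snoRNA covariate 0.99 and -1.004. Copies 3-1 and 3-2 share a mature sequence, yet 5xFAD shCT mouse 18 was the highest of all mice at 3-1 and the lowest of its group at 3-2.

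**Figure D2:**
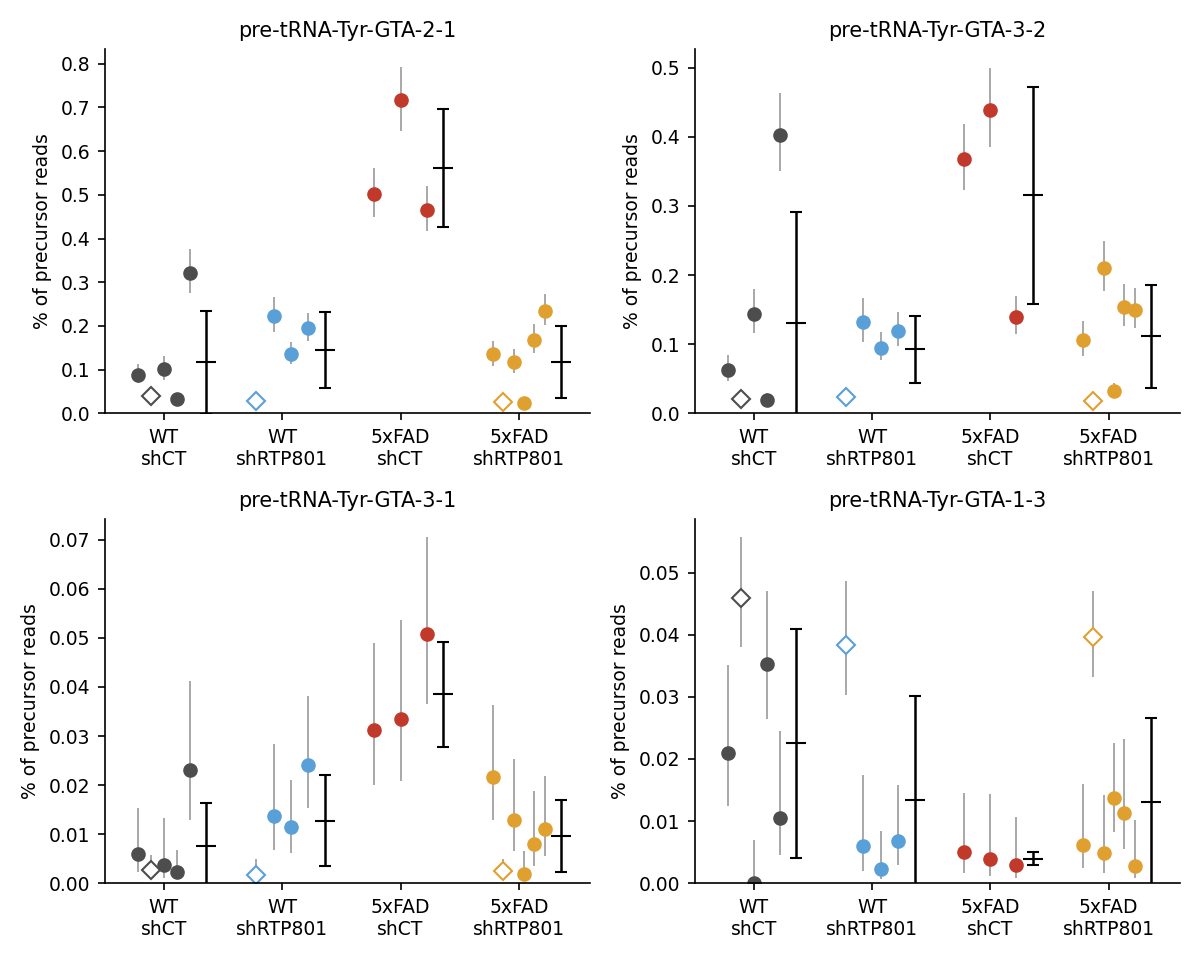
Percentage of precursor reads at loci 2-1, 3-2, 3-1 and 1-3 in each mouse, with 95% Wilson intervals and the mean ± SD beside each group; each panel has its own scale, and open diamonds mark the 3 libraries low in mitochondrial tRNA. At 2-1 and 3-1 the 5xFAD shCT mice are above all others, while at 1-3 they lie between 0.00290 and 0.00495%, at the low end.

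The 5 copies of isodecoder 1 were weak, and they did not run alike. Locus 1-3 gave 413 reads, 1-4 gave 96, 1-5 gave 79, 1-1 gave 42 and 1-2 gave 35. Locus 1-3 was at 0.0209, 0.0460, 0, 0.0352 and 0.0104% in WT shCT and at 0.0384, 0.00590, 0.00229 and 0.00672% in WT shRTP801. The 0 of 54835 reads in WT shCT mouse 6 allows a share of up to 0.00547%. In 5xFAD shCT it was at 0.00495, 0.00394 and 0.00290%, and in 5xFAD shRTP801 it ran from 0.00277 to 0.0395% with a median of 0.00871%. Its 3 highest values belonged to the 3 libraries low in mitochondrial tRNA. The log2 difference between 5xFAD shCT and WT shCT was -1.46 (SE 1.04, limma adjusted p = 0.492), and that between 5xFAD shRTP801 and 5xFAD shCT was 1.08 (SE 1.007, limma adjusted p = 0.795), so its sign was opposite to that of 2-1 but within the spread in limma. Both were smaller in size without the 3 libraries, at -1.007 and 0.68. Both were larger in edgeR, at -2.83 (unadjusted p = 0.0330, adjusted p = 0.296) and 2.21 (unadjusted p = 0.0794). DESeq2 gave -2.56 (unadjusted p = 0.0198, adjusted p = 0.2355) and 1.85 (unadjusted p = 0.0858).

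Locus 1-4 had only 6, 5 and 5 reads in the 5xFAD shCT mice (0.00726 to 0.00989%), above the 0 to 0.00657% of WT shCT (exact permutation p = 0.0357) and the 0 to 0.00620% of 5xFAD shRTP801 (exact permutation p = 0.0119). WT shRTP801 mouse 4 was higher still, at 0.0106%. The differences had the signs of 2-1 and 3-1, 1.34 (SE 0.67, limma adjusted p = 0.325) and -1.49 (SE 0.65, limma adjusted p = 0.598), and were 1.58 and -1.61 without the 3 libraries. They rest on 96 reads in all mice. Locus 1-2 had 0 reads in all 3 5xFAD shCT mice, which allows up to 0.00435 to 0.00590%, a range that includes the 0.00536% of its highest WT shCT mouse. Locus 4-1, the copy of isodecoder 4, gave 21 reads in all, of which 1 came from the 6 5xFAD shRTP801 mice. At 21 to 79 reads in all, the groups were not ordered for 1-1, 1-2, 1-5 and 4-1.

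All 9 loci passed the filter of a mean of 0.001% and were tested with 324 others. No locus of the table passed in any of the 4 pairwise comparisons or in the interaction with limma (0%), edgeR or DESeq2. Between 5xFAD shCT and WT shCT, 3 of the 9 had an unadjusted p below 0.05 and were higher (2-1, 3-1 and 3-2), against 35 of 333 loci or 10.5% over the table. Groups without overlap and 5xFAD shCT higher were found for 3 of the 9 (2-1, 3-1 and 1-4), against 6.91% of all loci. The median log2 difference was 0.19 over the 9 loci and 0.03 over all loci, with 6 of the 9 above 0. Between 5xFAD shRTP801 and 5xFAD shCT, 4 of the 9 were lower at an unadjusted p below 0.05 (2-1, 3-1, 1-4 and 4-1), against 16 of 333 or 4.8%. Locus 4-1 enters this count with 2, 3 and 0 reads in the 5xFAD shCT mice and with groups that overlap (exact permutation p = 0.0833). In that comparison 3 of the 9 had no overlap (2-1, 3-1 and 1-4), against 4.5% of all loci, and the median was -1.49 over the 9 and -0.13 over all. In the interaction 3 of the 9 were lower at an unadjusted p below 0.05 (2-1, 3-1 and 1-4), against 9.01% of all loci, with limma adjusted p values of 0.241, 0.241 and 0.286. Without the 3 libraries the counts were again 3, 4 and 3, with 1-4 in place of 3-2 in the first, against 11.4, 4.8 and 12.3% of all loci.

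The remaining comparisons do not involve 5xFAD shCT. WT shRTP801 against WT shCT gave 5 loci above 0 and 4 below with a median of 0.17. 5xFAD shRTP801 against WT shRTP801 gave 4 above and 5 below with a median of -0.34. None of the 9 had an unadjusted limma p below 0.05 in these, against 34 and 7 of all 333 loci. Locus 2-1 differed by 0.46 and -0.39, 3-1 by 0.76 and -0.34, 3-2 by 0.17 and 0.08, and 1-3 by -0.55 and 0.17 on the log2 scale. The differences at 1-5 were larger, 1.02 (SE 0.76) and -1.50 (SE 0.73, limma unadjusted p = 0.0554, adjusted p = 0.991, exact permutation p = 0.0476), with groups that overlap. Without the 3 libraries, which held 23, 17 and 15 of its 79 reads, they were 1.23 and -1.51, the latter at a limma unadjusted p of 0.0495 (adjusted p = 0.675). Locus 4-1 differed by -0.50 and -0.87.

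Loci 2-1, 3-1 and 3-2 went together over the 18 mice, with a Spearman's rho of 0.72 to 0.91. It was 0.049 to 0.55 among the 5 isodecoder 1 copies and -0.68 to 0.11 between these and the former 3. The 2 ranges overlap through 1-4, whose rho was 0.049 with 1-2 and 0.11 with 3-1. Locus 4-1 went closely with neither, at 0.036 to 0.15 with 2-1, 3-1 and 3-2 and -0.10 to 0.43 with the isodecoder 1 copies. These values are descriptions, since the points share the library totals and a percentage that is higher at one locus leaves less for the others.

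Within the family, locus 2-1 took a mean of 37.4% ± 7.4 of the precursor reads in the WT mice with shCT and 47.2% ± 16.3 in those with shRTP801. In 5xFAD mice it took 61.0% ± 7.7 with shCT and 40.7% ± 13.2 with shRTP801 (SD, n as above). The 3 5xFAD shCT mice, at 54.5, 59.1 and 69.5%, were above the 5 WT shCT mice, at 29.1 to 45.4%. The difference on the scale log2(percentage + 1%) was 0.71 (SE 0.31) and did not pass (limma unadjusted p = 0.0367, adjusted p = 0.442, exact permutation p = 0.0179). In WT shRTP801, 3 of the 4 mice stood at 52.7 to 57.9%, and 5xFAD shRTP801 mouse 19 stood at 58.7%. The 5xFAD groups differed by -0.63 (SE 0.30, limma adjusted p = 0.612, exact permutation p = 0.0357). With the 3 libraries left out these were 0.64 (exact permutation p = 0.0286) and -0.50 (exact permutation p = 0.0893).

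Locus 1-3 took 32.4 to 38.8% of the family's precursor reads in the 3 libraries low in mitochondrial tRNA and 0 to 31.1% in the others, with a median of 1.37%. In 5xFAD shCT it took 0.325 to 0.536%. Its difference was -2.49 (SE 1.27, limma adjusted p = 0.450) between 5xFAD shCT and WT shCT and 2.03 (SE 1.23, limma adjusted p = 0.628) between the 5xFAD groups, and -1.94 and 1.47 without the 3 libraries. No Tyr-GTA locus passed in these within-family shares, in which 5 of the 328 loci tested passed in the interaction (1.52%).

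**Figure D3:**
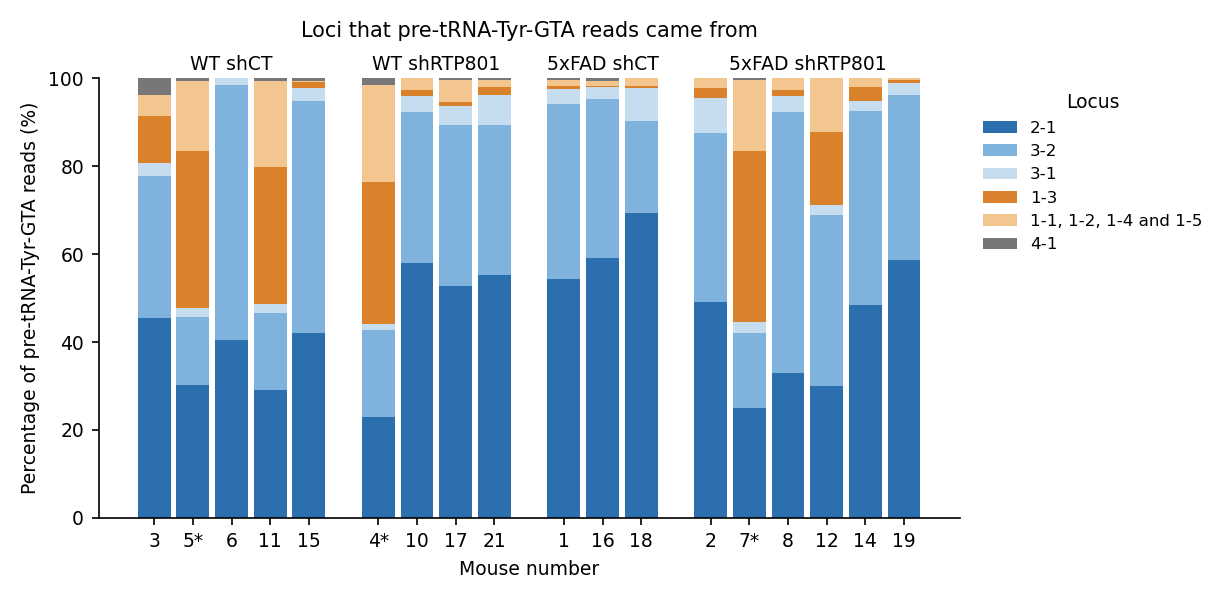
Share of the family's precursor reads (%) that came from each locus, one bar per mouse, with an asterisk at the 3 libraries low in mitochondrial tRNA. Locus 1-3 takes 32.4 to 38.8% of the bar in those 3 mice, 31.1% in WT shCT mouse 11 and 16.7% in 5xFAD shRTP801 mouse 12, and 0.325 to 0.536% in the 5xFAD shCT mice, where locus 2-1 takes 54.5 to 69.5%.

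The composition of a library moved with these levels. Over the 18 mice the family's precursor level had a Spearman's rho of 0.83 with the share of snoRNA in the library, 0.69 with that of mitochondrial tRNA and -0.80 with that of mature tRNA. For locus 2-1 rho with the snoRNA share was 0.89, and for the isodecoder 1 copies summed it was -0.52. The snoRNA share was 5.09 to 6.55% in 5xFAD shCT and 0.00500 to 4.32% in 5xFAD shRTP801. In the WT mice it was 0.000358 to 4.83% with shCT and 0.0350 to 5.58% with shRTP801. In the comparisons of 5xFAD shCT with WT shCT and with 5xFAD shRTP801 the groups therefore did not overlap in snoRNA share. WT shCT mouse 15, the control mouse with the highest precursor level, also had the highest snoRNA share of its group. With the log2 snoRNA share as a covariate the family's differences were 1.45 (limma unadjusted p = 0.0154, adjusted p = 0.413) and -1.61 (limma unadjusted p = 0.00587, adjusted p = 0.282). Because the groups did not overlap in snoRNA share, the covariate cannot separate group from library composition, here or at the single loci. On the deposited values, scaled by size factors, the median of the 48 families moved from -0.02 to -1.002 and from -0.16 to 0.68 in these comparisons. Tyr-GTA stood at 1.05 (limma unadjusted p = 0.191, adjusted p = 0.4725) and -1.20 (limma unadjusted p = 0.125, adjusted p = 0.7185) on that scale. Its distance from the respective median was 2.05 and -1.88. On the same scale 2-1 differed by 1.76 and -1.83, 3-1 by 1.69 and -1.39 and 3-2 by 1.06 and -0.94, with medians over the 333 loci of -0.90 and 0.66.

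The families whose precursor level went most closely with that of Tyr-GTA over the 18 mice were Arg-TCT (rho 0.92), Ile-TAT (rho 0.91) and Leu-CAA (rho 0.79), each of which has members with an intron. Phe-GAA, the comparator without introns, had a rho of -0.66. Between 5xFAD shCT and WT shCT these families differed by 1.58, 1.99, 3.43 and -0.89 on the log2 scale in that order, none with a limma adjusted p below 0.312. The study lists 22 mouse loci with an intron, of which 10 are Tyr-GTA and 20 have a precursor row. Locus Tyr-GTA-5-1 is on the list and has no precursor row. All 11 listed loci of other families were above 0 in this comparison (median 2.65, 5 with an unadjusted p below 0.05), whereas 3 of the 9 Tyr-GTA loci were below 0. Over all 333 loci, 169 were above 0 and 35 (10.5%) were higher at that p. All 11 were also below 0 between 5xFAD shRTP801 and 5xFAD shCT (median -2.01, 1 with an unadjusted p below 0.05). There 180 of all 333 loci were below 0 and 16 (4.8%) were lower at that p. The 11 belong to Arg-TCT, Ile-TAT and Leu-CAA, so they are not independent of the family values above. The 6 Phe-GAA loci had medians of -0.78 and 0.73. Families without a locus on the list were also higher in 5xFAD shCT than in WT shCT. Without WT shCT mouse 15, the families that followed Tyr-GTA (2.47) by p value were Ser-GCT at 3.855, Ser-AGA at 3.05 and Leu-CAG at 2.23. None of these is on the list, and they were named after their values were seen. With all mice, Tyr-GTA was 5th of 48 families by size of the difference.

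Mature levels are given as the percentage of all mature tRNA reads. The Tyr-GTA family was 48th of 50 mature families, at 0.0414%. It was at 0.0379, 0.0237, 0.0297, 0.0720 and 0.0428% in WT shCT, 0.0359, 0.0373, 0.0455 and 0.0409% in WT shRTP801, and 0.0479, 0.0499 and 0.0372% in 5xFAD shCT. In 5xFAD shRTP801 it ran from 0.0260 to 0.0703% with a median of 0.0361%. All groups overlapped, and the highest mice were WT shCT mouse 11 and 5xFAD shRTP801 mouse 12. The means were 0.0412% ± 0.0187, 0.0399% ± 0.00431, 0.0450% ± 0.00679 and 0.0408% ± 0.0156 in the order of the groups above.

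No mature difference exceeded the spread. 5xFAD shCT differed from WT shCT by 0.21 on the log2 scale (SE 0.33, limma adjusted p = 0.739), against a median of 0.23 over the 49 families tested, and 5xFAD shRTP801 differed from 5xFAD shCT by -0.20 (SE 0.32, limma adjusted p = 0.949), against a median of -0.17. WT shRTP801 differed from WT shCT by 0.050 (SE 0.31, limma adjusted p = 0.991) and 5xFAD shRTP801 from WT shRTP801 by -0.034 (SE 0.29, limma adjusted p = 0.948), and the interaction was -0.25 (SE 0.44, limma adjusted p = 0.773). On the deposited values the first 2 differences were -0.55 and 0.35, with medians over the families of -0.54 and 0.39, so the direction of the mature level followed the scaling. No mature family passed with limma (0%) or edgeR, and DESeq2 called 1 other family in the WT groups. At an unadjusted p below 0.05 limma gave 2, 1, 6, 0 and 4 of 49 families in these comparisons, Tyr-GTA not among them.

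Isodecoders 2 and 3 were the most abundant mature forms, at group means of 0.0145 to 0.0169% each. Isodecoder 1 followed at 0.00868 to 0.00964%, and isodecoder 4 at 0.00178 to 0.00219%. Isodecoder 5 had 274 reads in all, against 5166 for isodecoder 4, and was the only one of the 5 below the filter. Between 5xFAD shCT and WT shCT isodecoder 1 differed by -0.01 (SE 0.32) and isodecoder 2 by 0.25 (SE 0.33), and between the 5xFAD groups by 0.04 (SE 0.31) and -0.26 (SE 0.32). As shares of reads, not corrected for length, the precursors of the 5 isodecoder 1 copies summed to group means of 0.0168 to 0.0333%, against 0.116 to 0.562% for isodecoder 2.

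The mature rows do not count separate molecules. Isodecoders 2 and 3 held the same number of threeprime reads in 17 of 18 libraries, with a difference of 1 read in the other, and isodecoders 1 and 2 held the same number of fiveprime reads in all 18. A read that matches several isodecoders was thus counted at each of them, and the family sum counts such reads more than once. Among the precursor loci no pair held the same count in more than 8 of 18 libraries.

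**Figure D4:**
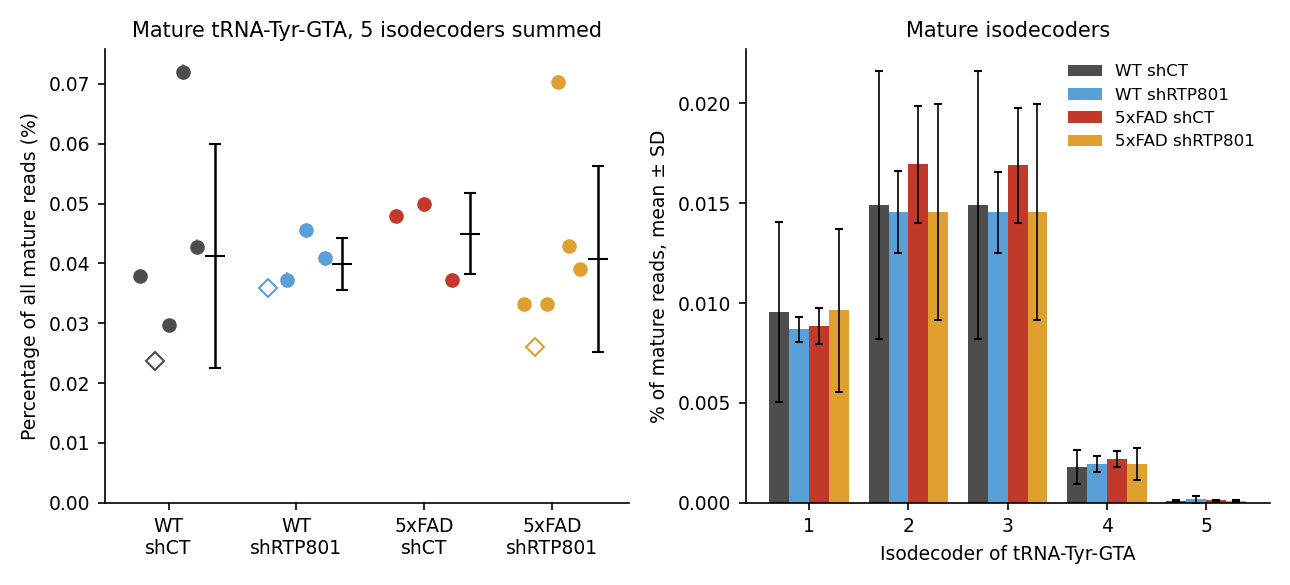
Left, percentage of mature tRNA reads from the 5 Tyr-GTA isodecoders summed in each mouse, with the mean ± SD beside each group and open diamonds for the 3 libraries low in mitochondrial tRNA; right, mean ± SD per isodecoder and group. The groups overlap, at means of 0.0399 to 0.0450%, and the bars of isodecoders 2 and 3 are almost equal because they share reads.

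Alkaline hydrolysis cuts tRNAs before sequencing, and the table separates mature reads by the end they reach. Threeprime reads made up 92.3% ± 3.7 of the family's mature reads (82.0 to 96.1%, n = 18), other reads 7.57% ± 3.79 and fiveprime reads 0.156% ± 0.131. The 3 libraries low in mitochondrial tRNA had 82.0 to 89.0% threeprime reads and no fiveprime read. Fiveprime reads made up 0.0560, 0, 0.0443, 0 and 0.174% in WT shCT, and 0.296, 0.295 and 0.350% in 5xFAD shCT, from 20, 19 and 14 counted reads. In WT shRTP801 they made up 0, 0.272, 0.138 and 0.248%, and in 5xFAD shRTP801 0 to 0.353% with a median of 0.169%. The 5xFAD shCT mice were above all WT shCT mice and within the range of 5xFAD shRTP801. On the scale log2(percentage + 1%) 5xFAD shCT differed from WT shCT by 0.32 (SE 0.10, limma unadjusted p = 0.00558, adjusted p = 0.678, exact permutation p = 0.0179). This was the smallest p value of 191 read types, of which 8 (4.19%) were higher in 5xFAD shCT at an unadjusted p below 0.05. The 5xFAD groups differed by -0.19 (limma adjusted p = 0.751). Leaving out the 3 libraries gave 0.30 (limma adjusted p = 0.313, exact permutation p = 0.0571) and -0.15. Isodecoders 1 and 2 held the same number of fiveprime reads in all 18 libraries, and isodecoders 3 and 4 in 17 of 18. The number of molecules behind these shares is therefore lower than the counts given. In the 5xFAD shCT mice isodecoder 1 held 10, 9 and 4 of them, and isodecoder 2 the same numbers.

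The precursor percentage of the family divided by its mature percentage gives the ratio in each mouse, with each percentage taken within its own class of reads. It was 5.02, 5.27, 8.10, 1.57 and 17.5 in WT shCT, and 3.24, 10.04, 5.58 and 8.43 in WT shRTP801. It was 18.9, 23.9 and 17.6 in 5xFAD shCT, and in 5xFAD shRTP801 it ran from 1.17 to 10.4 with a median of 8.00. The 5xFAD shCT mice were above all 15 others, though WT shCT mouse 15, at 17.47, came close to the lowest of them, at 17.56. 5xFAD shCT was 3.52-fold above WT shCT (log2 difference 1.81, SE 0.72, limma unadjusted p = 0.0214, adjusted p = 0.315, exact permutation p = 0.0714). It was the only 1 of 48 families that was higher there at an unadjusted p below 0.05, and the only 1 without overlap in that direction (2.08% each). 5xFAD shRTP801 was 3.59-fold below 5xFAD shCT (log2 difference -1.84, SE 0.69, limma unadjusted p = 0.0166, adjusted p = 0.435, exact permutation p = 0.0595), where 2 of 48 families were lower (4.17%). In WT mice the hairpin's difference was 0.14 (SE 0.66, limma adjusted p = 0.908), and the interaction was -1.98 (SE 0.96, limma adjusted p = 0.302). The differences with 5xFAD shCT were 1.79 (exact permutation p = 0.0571) and -1.73 (exact permutation p = 0.0357) without the 3 libraries. The mature level differed little, so the ratio follows the precursor level and is not independent of it.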

How the data were processed

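Hydro-tRNA-seq libraries were made from hippocampal RNA (RIN 8 or higher) recovered from a 60 to 100 nt gel window and hydrolysed with alkali. Per the labels, reads were analysed with tRAX on mm39. The deposited signal was read counts divided by a size factor for each library by the authors, and 100% of values came out as whole reads (tolerance 0.01). Library totals leave out 329 rows of other genes that repeated another row to within 5%. Mature tRNA reads counted at several isodecoders were not removed from them. Mice were grouped by labelled genotype and treatment. Percentages of precursor or mature reads were computed with Python 3.11.15, and log2(percentage + 0.001%) of every feature averaging 0.001% or more was fitted with limma 3.58.1 (R 4.3.3) over 18 mice in 4 groups. P values were adjusted after Benjamini and Hochberg, with a threshold of 0.05. Shares within the family used a pseudocount of 1%. Two-sided exact permutation tests used scipy 1.17.1. Alternatives were edgeR 4.0.16 and DESeq2 1.42.0 on the recovered reads, the deposited values with a pseudocount of 1, other pseudocounts, no filter, only the groups compared, the snoRNA share as a covariate, and each mouse left out. Leaving out the 3 libraries low in mitochondrial tRNA and leaving out reads of isodecoder 3 were chosen after seeing the data. Scripts were tested on simulated data. The members and gene lists were chosen with earlier results of these data known. Every Tyr-GTA row is named, beside Phe-GAA, counts of the other listed intron loci, and the 3 families most alike. Mice are taken as separate animals from their labels. tRNA sequences were not used here.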

Additional observations from a re-analysis of the deposited data

Results flagged for a closer look

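In groups of 4 to 6 mice, 8 of the 45 sets of values examined had a mouse far from the rest by Dixon's criterion. Its nominal rate of about 1 of 20 groups holds for independent, normally distributed values. The 45 sets are percentages that share mice and reads, so their number cannot be set against that rate. WT shCT mouse 15 stood out 3 times. Its precursor family level was 0.764% against 0.248% for the next mouse, its level at locus 2-1 was 0.322% against 0.1003%, and its level at locus 3-1 was 0.0230% against 0.00597%. These are not independent, as the loci are part of the family sum. Locus 1-3 stood out in WT shRTP801 mouse 4, at 0.0384% against 0.00672%, and in 5xFAD shRTP801 mouse 7, at 0.0395% against 0.0137%, both of them libraries low in mitochondrial tRNA. Mature isodecoder 4 was low in WT shRTP801 mouse 4, at 0.00134% against 0.00207%. Mature isodecoders 2 and 3 were each high in 5xFAD shRTP801 mouse 12, at 0.0248% against 0.0147%, and these share their reads. The part of library composition in these values was not tested. None of the interactions of genotype and hairpin for a Tyr-GTA feature passed the adjusted threshold in limma (0).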

How the results depend on the processing

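The precursor family difference between 5xFAD shCT and WT shCT was 1.05 to 2.47 over 27 alternatives, and that between the 5xFAD groups was -2.26 to -1.20. With 1 mouse left out, the first was 1.79 to 2.47 (limma adjusted p 0.0175 to 0.620) and passed only without WT shCT mouse 15. No count of Tyr-GTA members past the adjusted threshold rose above 0 in any alternative run. The values below changed sign, and the cause was not tested. For the precursor family, WT shRTP801 against WT shCT was -0.097 with the snoRNA covariate, -0.059 as the log2 ratio of group means and -0.050 to 0.64 with 1 mouse left out, and 5xFAD shRTP801 against WT shRTP801 was -0.57 to 0.077. The mature family changed sign on the deposited values (-0.55, 0.35, -0.41, 0.22 and, for the interaction, 0.77) and with edgeR (-0.061, 0.053, -0.14, 0.14 and 0.20). The first 4 of each are 5xFAD shCT against WT shCT, the 5xFAD groups, the WT groups and the shRTP801 groups. In DESeq2 the WT groups gave -0.066, the shRTP801 groups 0.13 and the interaction 0.060. Without the 3 libraries low in mitochondrial tRNA the WT and shRTP801 groups gave -0.070 and 0.029, with the covariate -0.045 and 0.013, as ratios of means -0.047 and 0.031, and with 1 mouse left out -0.12 to 0.27 and -0.20 to 0.077. The precursor to mature ratio was -0.052 with the covariate in the WT groups, and with 1 mouse left out -0.32 to 0.55 there and -0.49 to 0.28 in the shRTP801 groups.

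Of single members, locus 3-2 in the WT groups was -0.35 with the covariate, -0.41 in edgeR, -0.38 in DESeq2, -0.49 as a ratio of means and -0.27 to 0.80 with 1 mouse left out. In the shRTP801 groups 3-2 was -0.050 without the 3 libraries and -0.48 to 0.51 with 1 mouse left out, 3-1 was -0.997 to 0.082, and 1-3 was -0.091 with the covariate, -0.011 in DESeq2, -0.032 as a ratio of means and -0.32 to 0.87. Isodecoder 2 was -0.50 and 0.28 on the deposited values, and isodecoder 1 was -0.15 to 0.21 and -0.13 to 0.12 with 1 mouse left out. The other 185 of 195 alternatives for selected single members, mice left out aside, kept their direction. These cover loci 2-1, 3-1, 3-2 and 1-3, isodecoders 1 and 2, fiveprime reads, and the within-family shares of 2-1 and 1-3. For the remaining members and comparisons, 178 of 2328 alternatives changed sign, mice left out included. No paired analysis was possible because the groups share no replicate numbers. With 3 mice in 5xFAD shCT and 90 to 616 precursor reads a mouse, loci with 21 to 79 reads in total were not ordered by group, and the order at 1-4 rests on 96 reads.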
